A study of Homo sapiens with 6 samples.

Results

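The cholinergic set consisted of 10 genes of the deposited expression table, which lists 32434 gene identifiers: the nicotinic acetylcholine receptor subunit genes CHRNA3, CHRNA5, CHRNB4, CHRNA7 and CHRNB2, the cholinesterase genes BCHE and ACHE, and CHAT, SLC18A3 and SLC5A7, whose products make acetylcholine, load it into vesicles and take up choline. The set was chosen by the deposited FPKM themselves, because CHRNA3, CHRNB4 and BCHE were higher in shMYT1 cells, so the values of these 3 genes are a description and carry no test. The other 7 genes were listed by role. All 10 were found by symbol in GENCODE 29, each with 1 identifier in the table. RNA sequencing compared 3 shMYT1 libraries with 3 shNC libraries of SK-N-BE(2), a human neuroblastoma cell line with noradrenergic features and amplified MYCN. The shMYT1 cells carried a short hairpin RNA against MYT1, which encodes a neuronal transcription factor with zinc fingers, and the shNC cells carried a control hairpin. Lentivirus was applied for 24 h and puromycin for 48 h. The protocols describe a knockdown, while the genotype label of the shMYT1 libraries says knockout, and the number of hairpins is not given. Nothing in the labels states that the replicates came from separate cultures, and p-values therefore measure only the spread between these libraries. The series title sets MYT1 beside neuroblastoma differentiation and retinoic acid signalling.

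Nicotinic receptors are pentameric cation channels opened by acetylcholine. In sympathetic ganglia, whose lineage gives rise to neuroblastoma, the main receptor is built from alpha3 and beta4 subunits, with alpha5 as an accessory subunit, and the genes of these 3 subunits lie side by side on chromosome 15. Acetylcholine is made by choline acetyltransferase, packed by the vesicular transporter encoded by SLC18A3, and broken down by acetylcholinesterase or the less selective butyrylcholinesterase.

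On hg38, CHRNA5 (ENSG00000169684) lies at chr15:78565520-78595269 on the plus strand, CHRNA3 (ENSG00000080644) at chr15:78593052-78621295 on the minus strand, and CHRNB4 (ENSG00000117971) at chr15:78624119-78727754 on the minus strand. CHRNA7 (ENSG00000175344) lies on the plus strand of the same chromosome, at chr15:31923438-32173018. CHRNB2 (ENSG00000160716) is at chr1:154567781-154580026 on the plus strand and BCHE (ENSG00000114200) at chr3:165772904-165837472 on the minus strand. ACHE (ENSG00000087085) is at chr7:100889994-100896974 on the minus strand and SLC5A7 (ENSG00000115665) at chr2:107986523-108013994 on the plus strand. SLC18A3 (ENSG00000187714) occupies chr10:49610301-49612720 inside CHAT (ENSG00000070748), at chr10:49609095-49665104. Both of these are on the plus strand and share no exon base.

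RefSeq promoter windows of 250 bases before a gene start (GRCh38.p14) were held for 9 of the 10 genes, 14 windows in all. The sequences below belong to the 4 genes that stood higher in shMYT1 cells without overlap between groups, followed by CHRNB2, which did not. Each is the part of the first window outside annotated exons of the set. For CHRNA3, whose window lies wholly in an exon of an alternative transcript, only the run from the first to the last GC box is shown. The stretches differ in length, and that of CHRNA3 was cut by its GC boxes, so their base composition cannot be compared. Capitals mark GC boxes (GGGCGG or, on the other strand, CCGCCC), the element bound by Sp-family factors.
CHRNA3, chr15:78621014-78621042, minus strand: CCGCCCcgcgcacgcCCGCCCGCCCGCCC
CHRNB4, chr15:78641246-78641460, minus strand: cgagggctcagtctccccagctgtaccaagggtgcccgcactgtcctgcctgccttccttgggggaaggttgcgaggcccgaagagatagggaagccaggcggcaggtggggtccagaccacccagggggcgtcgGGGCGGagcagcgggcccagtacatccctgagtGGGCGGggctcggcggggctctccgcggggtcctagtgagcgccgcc
BCHE, chr3:165837473-165837673, minus strand: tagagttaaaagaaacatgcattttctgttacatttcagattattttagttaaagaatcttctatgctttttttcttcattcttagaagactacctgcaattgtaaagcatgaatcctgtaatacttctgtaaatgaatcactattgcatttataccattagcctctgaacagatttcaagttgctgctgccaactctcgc
CHRNA7, chr15:32030233-32030461, plus strand: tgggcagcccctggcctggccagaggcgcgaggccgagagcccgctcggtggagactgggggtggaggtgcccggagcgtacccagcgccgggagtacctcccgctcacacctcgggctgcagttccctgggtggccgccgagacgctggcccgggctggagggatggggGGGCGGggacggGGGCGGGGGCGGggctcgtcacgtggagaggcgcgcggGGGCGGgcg
CHRNB2, chr1:154567528-154567777, plus strand: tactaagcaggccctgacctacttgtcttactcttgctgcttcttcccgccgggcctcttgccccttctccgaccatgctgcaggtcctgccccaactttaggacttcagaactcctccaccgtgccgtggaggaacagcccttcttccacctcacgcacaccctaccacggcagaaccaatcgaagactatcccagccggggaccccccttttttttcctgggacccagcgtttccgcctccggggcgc

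The windows differed in composition, counted over all 250 bases, so the boxes in the exonic parts not shown are included. The CHRNA3 window held 73.6% G and C with 4 GC boxes, that of CHRNB4 72.4% with 3, and that of CHRNA7 80.4% with 6. A GC box on either strand, overlapping matches included, was found in 42.6% of the 35116 RefSeq windows, and 4 or more in 7.63%. The BCHE window held 33.2% G and C and no GC box, and only 3.61% of all windows had a lower G and C content. The CHRNB2 window held 60.4% and no GC box, near the median of 58.0% over all windows, and that of SLC18A3 held 70.8% with 2 boxes. The second of the 3 ACHE windows held 75.2% with 5 boxes. ACHE rests on about 14 to 22 fragments per library, too few for a small difference to be seen. AAGTTT, the core sequence bound by zinc fingers of the MYT1 family, had no match on either strand in the 14 windows, against a match in 11.2% of all windows. At that share few matches are expected in 14 windows, so the absence says little. The nuclear receptor half-site AGGTCA, present in 12.1% of all windows, had a match only in the CHRNB2 window among the 14. CAGCACC, the left part of the REST binding element and present in 6.16% of all windows, matched once in the CHRNA3 window and once in the third CHAT window. A match describes the letters in a window and does not show a bound site.

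Library depth was lower in every shMYT1 library than in any shNC library, at 18.16 to 20.3 M recovered fragments in shMYT1 libraries and 21.08 to 21.68 M in shNC libraries. The targeted gene was checked first. MYT1 had 4.20, 4.13 and 4.36 FPKM (fragments per kilobase of exon and per 1 M fragments) in shMYT1 libraries, against 5.73, 5.12 and 5.18 FPKM in shNC libraries. It fell by 20.8%, with a difference of -0.28 on the log2(FPKM + 1) scale (SE 0.05, limma adjusted p = 0.0102). Every difference below is the shMYT1 mean less the shNC mean on this log scale, so changes of low genes are understated. Fewer cells of a type and less RNA per cell cannot be told apart in these bulk libraries. All 14 noradrenergic neuroblast markers averaged above 1 FPKM, and 6 rose and 3 fell, beside 11.9% and 12.3% of all tested genes. Their summed levels were 3131 to 3220 FPKM in shMYT1 libraries and 3519 to 3673 FPKM in shNC libraries. MYCN, the most abundant of the list and 1 of those that fell, averaged 1558 FPKM in shMYT1 cells and 1892 FPKM in shNC cells. Of those that rose, SLC6A2 averaged 21.5 FPKM in shMYT1 cells and 11.0 FPKM in shNC cells. DBH, which also rose, averaged 10.5 FPKM in shMYT1 cells and 5.62 FPKM in shNC cells. Without MYCN, the list summed to 1601 to 1628 FPKM in shMYT1 libraries and 1648 to 1751 FPKM in shNC libraries. The glial list summed to 34.9 to 35.5 FPKM in shMYT1 libraries and 28.3 to 29.8 FPKM in shNC libraries, with 5 of 12 markers tested, 1 up (PMP22) and 1 down (NGFR). SOX10, FOXD3 and CDH19 have no row in the table, and ERBB3 had at most 3 fragments. The fibroblast and smooth muscle list summed to 155 to 158 FPKM in shMYT1 libraries and 197 to 202 FPKM in shNC libraries, with 9 of 14 tested, 4 up (ACTA2, TAGLN, PDGFRA and COL3A1) and 3 down (LUM, DCN and COL1A1). Without LUM, which averaged 54.6 FPKM in shMYT1 cells and 97.7 FPKM in shNC cells, this list summed to 99.1 to 106 FPKM in shMYT1 libraries and 99.9 to 106 FPKM in shNC libraries. Without PMP22, the glial list summed to 10.4 to 11.2 FPKM in shMYT1 libraries and 12.4 to 13.8 FPKM in shNC libraries. The calls in the glial and fibroblast lists stand beside the same shares, 11.9% of all tested genes higher and 12.3% lower in shMYT1 cells. The part of these markers in the results below was not tested.

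The ganglionic alpha3 and beta4 genes and BCHE were higher in every shMYT1 library, CHRNA7 rose, and CHRNA5, CHRNB2 and SLC18A3 did not pass the test. ACHE, CHAT and SLC5A7 averaged below 1 FPKM in both groups. The average over all 6 libraries reached 1 FPKM in 7 of the 10 genes, which were tested with limma among 14106 genes. Of the 4 tested genes that were not used to pick the set, 1 passed an adjusted p of 0.05. Over all tested genes 24.2% passed, 11.9% higher and 12.3% lower in shMYT1 cells. With libraries rescaled to equal FPKM totals, 36.4% of the calls were higher in shMYT1 cells, against 49.2% with the values as deposited. Values did not overlap between groups in 4 of the 10 genes, all higher in shMYT1 cells, namely CHRNA3, CHRNB4, BCHE and CHRNA7. Of all tested genes 42.3% did not overlap, 20.5% being higher in shMYT1 cells. Since 3 of these 4 genes were chosen for their rise, the counts say nothing of the set beyond its choice.

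**Figure D1:**
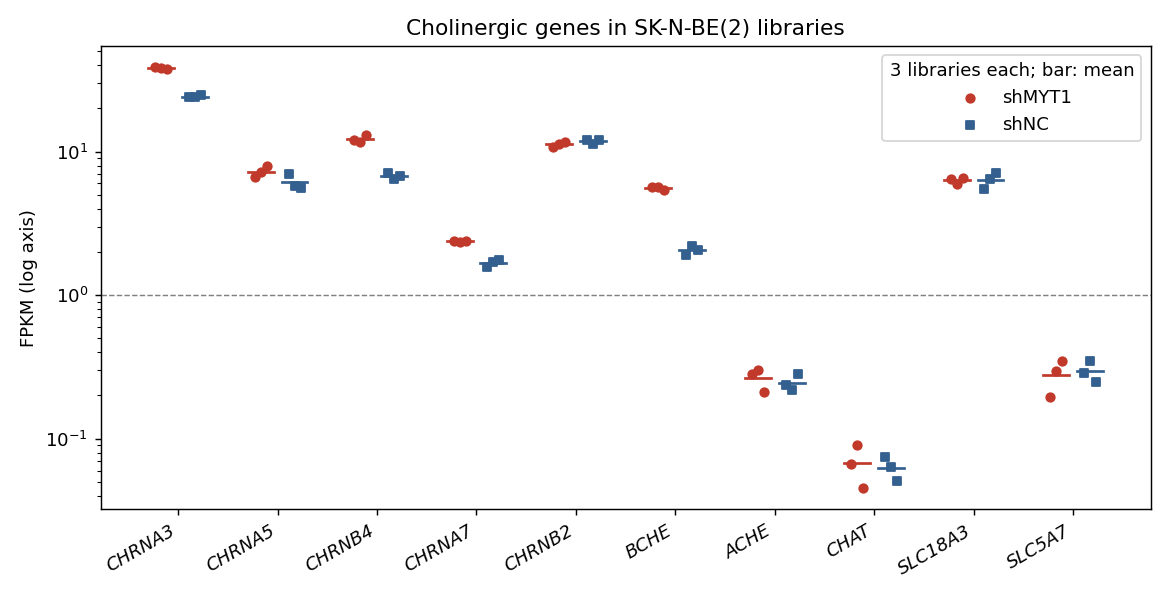
Level of each of the 10 cholinergic genes in FPKM on a log axis, 3 shMYT1 libraries beside 3 shNC libraries, with group means as bars. CHRNA3 stands highest at 37.5 to 38.8 FPKM in shMYT1 cells and 23.9 to 24.6 FPKM in shNC cells, and CHAT lowest, below 0.1 FPKM in all 6 libraries.

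CHRNA3, which encodes the alpha3 subunit, was the most abundant transcript of the set in both groups. CHRNA3 had 38.8, 38.1 and 37.5 FPKM in shMYT1 libraries, against 24.1, 23.9 and 24.6 FPKM in shNC libraries. The groups did not overlap, in a gene picked because it rose. The means were 38.1 ± 0.673 FPKM in shMYT1 cells and 24.2 ± 0.379 FPKM in shNC cells (SD, n = 3 each), a ratio of 1.58. On the log2 scale the difference was 0.64 (SE 0.03, 95% interval 0.57 to 0.70). Between 2390 and 3694 fragments stood behind each value. The coefficient of variation of CHRNA3 was 1.77% in shMYT1 libraries and 1.57% in shNC libraries, beside 1.73% and 2.03% from counting alone.

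CHRNB4, the beta4 subunit that pairs with alpha3 in ganglionic receptors, showed the larger relative difference of the pair. CHRNB4 had 12.0, 11.6 and 13.0 FPKM in shMYT1 libraries, against 7.14, 6.42 and 6.80 FPKM in shNC libraries. Every shMYT1 library was above every shNC library. The means were 12.2 ± 0.695 FPKM in shMYT1 cells and 6.79 ± 0.358 FPKM in shNC cells (SD, n = 3 each), a ratio of 1.80. The log2 difference was 0.76 (SE 0.05, 95% interval 0.63 to 0.89), from 671 to 1187 fragments per library. CHRNA3 exceeded CHRNB4 by 3.14 ± 0.214 times in shMYT1 cells and by 3.57 ± 0.179 times in shNC cells.

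CHRNA5, the accessory alpha5 subunit encoded on the opposite strand at the same locus, was intermediate. CHRNA5 had 6.69, 7.18 and 7.92 FPKM in shMYT1 libraries, against 6.98, 5.79 and 5.61 FPKM in shNC libraries. The first shNC library lay above the lowest shMYT1 library, so the groups overlapped. The log2 difference was 0.22 (SE 0.09, 95% interval 0.01 to 0.42), with a limma adjusted p of 0.121. Without shNC replicate 1 the difference was 0.30 with an adjusted p of 0.0419, and with voom on recovered fragments the adjusted p was 0.0229, with a range of 0.0229 to 0.283 over its alternatives. The spread of CHRNA5 exceeded counting error, at 8.53% in shMYT1 libraries and 12.2% in shNC libraries against 4.54% and 4.61%. Whether CHRNA5 differed less than CHRNA3 and CHRNB4 was not tested.

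The 3 genes of the cluster overlap other transcripts, and no strand setting is given in the sources used here. CHRNA3 and CHRNA5 share 198 exon bases on opposite strands, 4.2% of the exon bases of CHRNA3 and 5.5% of those of CHRNA5. CHRNA5 shares 832 bases (23.0%) with the antisense transcript AC027228.2, and CHRNB4 165 bases (3.3%) with the pseudogene AC022748.2. CHRNB2 shares 321 bases (5.4%) with the antisense transcript AL592078.1. Fragments in these stretches cannot be assigned to one strand with certainty.

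CHRNA7 encodes the alpha7 subunit, which forms receptors without a partner subunit and conducts calcium well. CHRNA7 had 2.39, 2.34 and 2.40 FPKM in shMYT1 libraries, against 1.56, 1.71 and 1.77 FPKM in shNC libraries. The groups did not overlap. CHRNA7 rose by 0.33 on the log2 scale (SE 0.06, 95% interval 0.19 to 0.48, limma adjusted p = 0.0094), a ratio of means of 1.41. The adjusted p stayed under 0.05 in the 13 alternatives run on it, from 1.2e-07 to 0.0379, and the difference was 0.50 with voom. The exact two-sided permutation p was 0.1, the smallest that 3 against 3 libraries allow. CHRFAM7A, a partial copy of CHRNA7 nearly identical in sequence, averaged 2.69 ± 0.139 FPKM in shMYT1 cells and 1.94 ± 0.188 FPKM in shNC cells (SD, n = 3 each). CHRFAM7A rose by 0.33 (SE 0.07, adjusted p = 0.0168), a call lost with no filter on low values (0.0510) and without shMYT1 replicate 1 (0.0581), shMYT1 replicate 3 (0.0576) or shNC replicate 2 (0.0525). Counting could have split fragments between the 2 genes, so the level of each is uncertain. The ratio of CHRNA7 to CHRFAM7A was 0.886 ± 0.0346 in shMYT1 cells and 0.876 ± 0.139 in shNC cells.

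CHRNB2 encodes beta2, the beta subunit of the main brain heteromeric receptors and an alternative partner of alpha3. CHRNB2 had 10.8, 11.3 and 11.6 FPKM in shMYT1 libraries, against 12.0, 11.2 and 12.1 FPKM in shNC libraries. The ranges overlapped. The log2 difference was -0.06 (SE 0.04, 95% interval -0.16 to 0.04, limma adjusted p = 0.360), on 1181 to 1516 fragments per library.

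The mix of subunit transcripts differed with these changes. CHRNB4 made up 52.0 ± 1.11% of the summed FPKM of CHRNB4 and CHRNB2 in shMYT1 cells and 36.5 ± 0.717% in shNC cells (SD, n = 3 each). CHRNB4 was thus slightly above CHRNB2 in every shMYT1 library and below it in every shNC library, with a ratio of 1.08 ± 0.0474 in shMYT1 cells and 0.576 ± 0.0179 in shNC cells. CHRNA3 held 53.6 ± 1.62% of the 5 measured subunits in shMYT1 cells and 47.9 ± 1.17% in shNC cells. CHRNB2 held 15.8 ± 0.427% in shMYT1 cells and 23.3 ± 0.458% in shNC cells. The share of CHRNA5 was 10.2 ± 0.738% in shMYT1 cells and 12.1 ± 1.27% in shNC cells, and that of CHRNA7 was 3.34 ± 0.0411% and 3.33 ± 0.270%. These shares follow in part from the rise for which CHRNA3 and CHRNB4 were picked, and they describe transcripts, not assembled receptors.

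**Figure D2:**
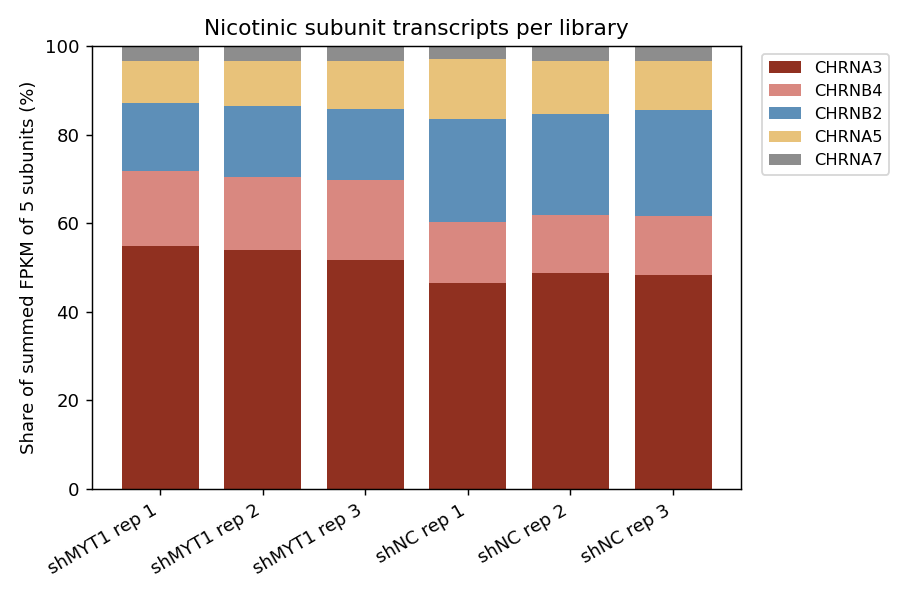
Share of the summed FPKM of 5 nicotinic subunit genes held by each gene, in percent, for the 3 shMYT1 libraries and then the 3 shNC libraries. The CHRNB2 band is 15.3 to 16.1% in shMYT1 libraries and 22.9 to 23.8% in shNC libraries.

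BCHE, which encodes butyrylcholinesterase, had the largest relative difference of the 7 tested genes. BCHE had 5.62, 5.69 and 5.44 FPKM in shMYT1 libraries, against 1.89, 2.21 and 2.07 FPKM in shNC libraries. All 3 shMYT1 libraries lay above all 3 shNC libraries, in a gene picked because it rose. The means were 5.59 ± 0.128 FPKM in shMYT1 cells and 2.06 ± 0.161 FPKM in shNC cells (SD, n = 3 each), a ratio of 2.71. The log2 difference was 1.11 (SE 0.05, 95% interval 0.98 to 1.24), on 125 to 346 fragments per library. With a pseudocount of 0.1 FPKM, which compresses low values less, it was 1.40.

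ACHE, the gene of acetylcholinesterase itself, was far lower than BCHE. ACHE had 0.282, 0.303 and 0.211 FPKM in shMYT1 libraries, against 0.237, 0.217 and 0.281 FPKM in shNC libraries. The groups overlapped, on about 14 to 22 fragments per library. The difference was 0.02 (95% interval -0.10 to 0.15, limma adjusted p = 0.859) in a fit of all 32434 identifiers without a filter, where 7.89% passed, 3.84% higher and 4.05% lower in shMYT1 cells. The ratio of BCHE to ACHE was 21.5 ± 3.75 in shMYT1 cells and 8.51 ± 1.48 in shNC cells (SD, n = 3 each).

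CHAT, the enzyme that makes acetylcholine, was barely detected. CHAT had 0.0668, 0.0905 and 0.0450 FPKM in shMYT1 libraries, against 0.0745, 0.0635 and 0.0509 FPKM in shNC libraries. These values rest on 3 to 6 fragments, while 3 fragments correspond to 0.0373 to 0.0452 FPKM for this gene, so a difference was not detectable at this depth (adjusted p = 0.951 in the fit without a filter). SLC5A7, the high-affinity choline transporter of cholinergic terminals, had 0.194, 0.295 and 0.349 FPKM in shMYT1 libraries, against 0.288, 0.350 and 0.249 FPKM in shNC libraries. The groups overlapped on 20 to 38 fragments, with a difference of -0.02 (95% interval -0.18 to 0.14, adjusted p = 0.915).

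SLC18A3, the vesicular acetylcholine transporter, was well above the other genes of synthesis and uptake. SLC18A3 had 6.44, 5.96 and 6.58 FPKM in shMYT1 libraries, against 5.50, 6.42 and 7.13 FPKM in shNC libraries. The shMYT1 values lay inside the shNC range. The log2 difference was 0.0003 (SE 0.08, 95% interval -0.20 to 0.20, limma adjusted p = 0.998), on 255 to 362 fragments. SLC18A3 exceeded its host gene CHAT by 103 ± 40.5 times in shMYT1 cells and by 105 ± 33.4 times in shNC cells, with CHAT close to its floor.

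In FPKM, which is per length, the order of levels in shMYT1 cells was CHRNA3, CHRNB4, CHRNB2, CHRNA5, SLC18A3, BCHE, CHRNA7, SLC5A7, ACHE and CHAT, and only SLC5A7 and ACHE overlapped as neighbours. In shNC cells the order was CHRNA3, CHRNB2, CHRNB4, SLC18A3, CHRNA5, BCHE, CHRNA7, SLC5A7, ACHE and CHAT. There CHRNB4 overlapped SLC18A3, SLC18A3 overlapped CHRNA5, and SLC5A7 overlapped ACHE. The annotated exons of CHRNA7 join to 20978 bases, the longest of the set, and its FPKM is low for its 703 to 1002 fragments.

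Genes near the cluster moved in part. Of the 10 nearest tested neighbours of CHRNA5, CHRNA3 and CHRNB4, 3 rose, and the other 7 did not pass the limma test. ADAMTS7, a secreted metalloprotease gene that lies 31.4 kb from the cluster, averaged 19.4 ± 1.01 FPKM in shMYT1 cells and 13.4 ± 0.345 FPKM in shNC cells (SD, n = 3 each) and rose by 0.51 (SE 0.04, adjusted p = 0.000637). The ADAMTS7 and MORF4L1 genes overlap at their 5′ ends on opposite strands. The other protein-coding neighbours did not pass. MORF4L1 averaged 51.9 FPKM in shMYT1 cells and 54.9 FPKM in shNC cells (-0.08, adjusted p = 0.0936, and 0.0273 after rescaling to equal totals). PSMA4, a proteasome subunit gene, averaged 28.3 FPKM in shMYT1 cells and 28.4 FPKM in shNC cells (adjusted p = 0.952). IREB2, an iron-responsive RNA-binding protein, averaged 16.8 FPKM in shMYT1 cells and 16.2 FPKM in shNC cells (adjusted p = 0.372), and TMED3 3.01 FPKM in shMYT1 cells and 3.00 FPKM in shNC cells (adjusted p = 0.959). The other rises were in antisense transcripts within the cluster. AC027228.2, which overlaps CHRNA5, averaged 3.27 FPKM in shMYT1 cells and 2.24 FPKM in shNC cells (0.41, adjusted p = 0.0209, range up to 0.0701 over its alternatives). AC067863.1, inside CHRNB4, averaged 1.73 FPKM in shMYT1 cells and 1.06 FPKM in shNC cells (0.40, adjusted p = 0.0326, range up to 0.102). Each of these 2 calls was lost in 6 alternatives, among them leaving out shMYT1 replicate 1, shMYT1 replicate 3, shNC replicate 2 or shNC replicate 3. Of the remaining neighbours, AC022748.1 had an adjusted p of 0.685, AC067863.2 of 0.594 and RNU6-415P of 0.141, and RNU6-415P passed without shMYT1 replicate 3 (0.0272).

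**Figure D3:**
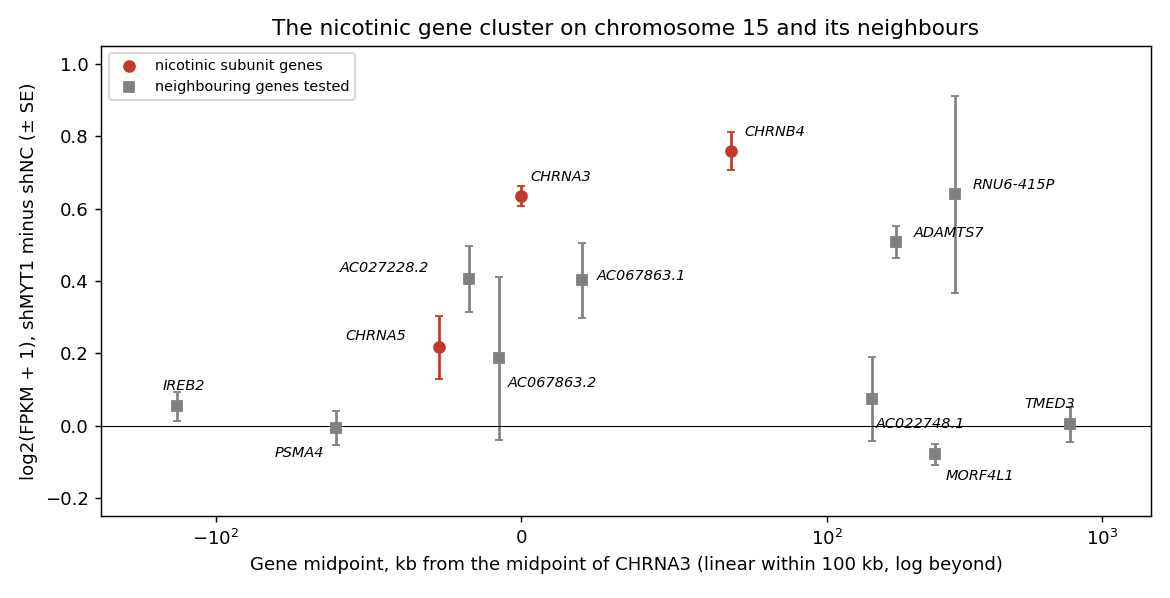
Difference (shMYT1 minus shNC, log2(FPKM + 1), ± SE) of the 3 nicotinic genes of the cluster and 10 tested neighbours against the distance of each gene's midpoint from that of CHRNA3, in kb. CHRNA3 and CHRNB4 lie at 0.64 and 0.76, ADAMTS7 at 0.51, and IREB2, PSMA4, MORF4L1 and TMED3 between -0.08 and 0.05.

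Around the other loci, the 10 nearest tested neighbours of BCHE lay 1846 to 4694 kb away and held 0 rises and 2 falls. Among the falls was SERPINI1, a neuronal serine protease inhibitor gene at 1898 kb (-0.60, limma adjusted p = 0.00258). The neighbours of ACHE held 4 rises and 0 falls, and ACHE itself rests on too few fragments for a small difference to be seen. CHRNA7 had 1 rise and 1 fall among its neighbours, which lay 347 to 1150 kb away, and CHRNB2 had 2 of each. In all, 10 of 50 neighbours rose and 5 fell, against 11.9% and 12.3% of all tested genes.

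No other nicotinic subunit gene averaged 1 FPKM. Of 11 further subunit genes, 10 had a row in the table. CHRNA9, the alpha9 subunit known from cochlear hair cells, had 0.712, 0.607 and 0.604 FPKM in shMYT1 libraries, against 0.206, 0.195 and 0.271 FPKM in shNC libraries. The groups did not overlap, and in the fit without a filter CHRNA9 rose by 0.42 (SE 0.06, adjusted p = 0.0160) on 13 to 45 fragments, where 3.84% of all genes were called higher. CHRNB1, the muscle beta1 subunit and the most abundant of these 10 genes, had 0.752, 0.836 and 0.806 FPKM in shMYT1 libraries, against 1.04, 0.902 and 0.969 FPKM in shNC libraries. CHRNB1 did not overlap between groups either, with a difference of -0.13 that did not pass (adjusted p = 0.395). Of 5 muscarinic receptor genes, whose products act through G proteins, 2 were tested and neither passed. CHRM3, below 1 FPKM, had 0.634, 0.516 and 0.703 FPKM in shMYT1 libraries, against 0.318, 0.317 and 0.310 FPKM in shNC libraries. Its groups did not overlap, but in the limma fit without a filter it did not pass (adjusted p = 0.0599). CHRM2 averaged 14.0 FPKM in shMYT1 cells and 13.6 FPKM in shNC cells (0.03, adjusted p = 0.657), and CHRM1 averaged 3.72 FPKM in shMYT1 cells and 4.17 FPKM in shNC cells (-0.13, adjusted p = 0.253).

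The few calls among genes for receptor assembly went in both directions. Of 16 assembly factors, clustering proteins and Ly6 modulators, 8 were tested, 1 rose, 1 fell and 6 did not pass, with a median difference of -0.12 against -0.005 over all tested genes, of which 11.9% rose and 12.3% fell. TMEM35A, which encodes the receptor chaperone NACHO, had 7.44, 9.13 and 8.47 FPKM in shMYT1 libraries, against 11.4, 10.2 and 10.8 FPKM in shNC libraries. It fell by 0.34 (SE 0.07, adjusted p = 0.0182), a call lost with no filter (0.0519), with a replicate block (0.0514) and without shNC replicate 1 (0.0625). NOMO1, whose worm counterpart acts in subunit assembly, averaged 24.1 ± 0.691 FPKM in shMYT1 cells and 21.0 ± 1.57 FPKM in shNC cells (0.19, adjusted p = 0.0478), and this call was lost in 9 alternatives, with adjusted p up to 0.131. NOMO1 has near-identical copies, which makes its level uncertain. PRIMA1, the membrane anchor of cholinesterases, averaged 3.46 ± 0.253 FPKM in shMYT1 cells and 3.65 ± 0.504 FPKM in shNC cells (adjusted p = 0.687).

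Of 16 genes of choline uptake and phosphatidylcholine synthesis, 11 were tested, 1 rose and 2 fell, with a median of 0.02, beside 11.9% and 12.3% of all tested genes. SLC44A1, a ubiquitous choline transporter, had 2.87, 3.01 and 2.80 FPKM in shMYT1 libraries, against 4.56, 4.20 and 4.35 FPKM in shNC libraries. It fell by 0.46 (adjusted p = 0.00127). FLVCR1, which also carries choline, averaged 5.77 ± 0.0239 FPKM in shMYT1 cells and 7.81 ± 0.643 FPKM in shNC cells and fell by 0.38 (adjusted p = 0.0049). SLC44A2, a related transporter, averaged 7.06 ± 0.252 FPKM in shMYT1 cells and 5.41 ± 0.137 FPKM in shNC cells and rose by 0.33 (adjusted p = 0.00219).

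Of 25 regulators linked to cholinergic or sympathetic transmitter identity, 17 were tested, 5 rose and 4 fell, with a median of -0.03. Over all tested genes 11.9% rose and 12.3% fell. LIFR, the leukaemia inhibitory factor receptor, had 3.18, 3.35 and 3.08 FPKM in shMYT1 libraries, against 8.80, 8.52 and 7.94 FPKM in shNC libraries, and fell by 1.16 (SE 0.05, adjusted p = 6.25e-05). CNTFR, the ciliary neurotrophic factor receptor, had 82.5, 82.3 and 85.3 FPKM in shMYT1 libraries, against 52.0, 50.8 and 57.4 FPKM in shNC libraries, and rose by 0.64 (SE 0.05, adjusted p = 0.000413). Neither gene overlapped between groups. IL6ST, the signalling subunit that LIFR and CNTFR receptors share, averaged 10.9 ± 0.480 FPKM in shMYT1 cells and 13.4 ± 0.989 FPKM in shNC cells and fell by 0.28 (adjusted p = 0.0167). KLF7, a neuronal zinc-finger factor, rose by 0.33 (25.2 ± 0.677 FPKM in shMYT1 cells and 19.8 ± 0.173 FPKM in shNC cells, adjusted p = 0.000742).

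Of 7260 protein-coding genes averaging 5 FPKM or more, TRIB2, DPYSL3 and MAN2A2 followed CHRNA3 most closely over the 6 libraries. Each had a Pearson r of 0.999, given as a description over 2 groups of 3 libraries. CHRNA3 was picked for its rise, so r mostly reflects that each gene also differed between the groups. It does not measure the size of that difference and says nothing of shared regulation. TRIB2, a pseudokinase gene, ranged from 51.4 to 52.3 FPKM in shMYT1 libraries and from 43.8 to 44.1 FPKM in shNC libraries. DPYSL3, a protein of growing axons, ranged from 56.0 to 56.4 FPKM in shMYT1 libraries and from 41.8 to 42.5 FPKM in shNC libraries. MAN2A2, a Golgi mannosidase, ranged from 6.06 to 6.21 FPKM in shMYT1 libraries and from 5.21 to 5.24 FPKM in shNC libraries.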

How the data were processed

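The authors deposited 1 table of FPKM, a read count scaled by transcript length and library size, for 6 total RNA libraries. HISAT2 2.0.5, featureCounts 1.5.0-p3 and hg38 were used, per the submitters' processing notes. Strandedness, annotation and any filter are not stated. Symbols, positions and exon lengths came from GENCODE 29, which holds 99.59% of the 32434 gene identifiers. For 95.4% of these, FPKM multiplied by exon length gave whole numbers of fragments in every library (tolerance 0.01) once divided by a value fixed for that library. For other identifiers, ACHE among them, fragments are approximate. In a library, 3 fragments on 1 kb equal 0.140 to 0.170 FPKM, a floor that covers counting error only. Library medians of gene ratios were already aligned, so the values were used as deposited.

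The test was limma 3.58.1 in R 4.3.3, two-sided and with its variance trend, applied to log2(FPKM + 1) of the 14106 genes averaging 1 FPKM or more, with Benjamini-Hochberg adjustment over them. Genes below that level were taken from a fit without the filter. A gene passed at adjusted p under 0.05. The 10 genes and the 9 wider lists were chosen with earlier results of these data known. Named were the 10 genes, up to 4 passing genes per list with the largest change (or the 2 highest where none passed), the neighbours of the chromosome 15 cluster, MYT1, and the 3 protein-coding genes most like CHRNA3. Genes the rule selects in the marker lists are given in counts, some also by name or level, without their single test results. A gene that the rule selects is not reported here. CHRFAM7A, CHRNA9, CHRNB1, CHRM3, IL6ST, PDGFRA, COL3A1 and COL1A1 were named after their values were seen. Alternatives varied the pseudocount, filter, scaling and variance model, added the replicate number as a block, left out each library, and ran voom on recovered fragments.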

Additional observations from a re-analysis of the deposited data

How the results depend on the processing

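Of the 7 genes of the set not used to choose it, CHRNA7 passed in all 13 alternatives that test it, and CHRNA5 passed without shNC replicate 1 and with voom. Counted with CHRNA3, CHRNB4 and BCHE, whose passing was fixed by the choice and shows no stability, the set held 4 calls, and 2 with a filter at a mean of 5 FPKM, which leaves out BCHE and CHRNA7. Over all genes 3420 passed, and 2038 to 3048 passed when 1 library was left out, with 2196 without shMYT1 replicate 1, 2195 without shNC replicate 1 and 2038 without shNC replicate 2. The wider lists, markers included, held 29 calls among 62 tested genes (46.8%) and the neighbours 15 among 50, against 24.2% of all tested genes. The lists were chosen with earlier results of these data known, so their share says nothing of cholinergic genes as a group. Signs turned round only in uncalled values. After rescaling to equal totals, SLC18A3 was at -0.031, CHRM2 at -0.0015 and TMED3 at -0.023. With single libraries left out, SLC18A3 ranged from -0.085 to 0.076, CHRM2 from -0.016 to 0.063, PRIMA1 from -0.13 to 0.027, AC022748.1 from -0.017 to 0.13, AC067863.2 from -0.045 to 0.35, PSMA4 from -0.057 to 0.025 and TMED3 from -0.011 to 0.029. The cause was not tested.

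Replicate numbers are shared between groups, but the labels do not say that they mark a batch. Deviations of same-numbered libraries correlated at 0.033, 0.013 and 0.043. Each shMYT1 library correlated best with the shNC library of its own number, but all values were under 0.1, so pairing was not assumed. With the replicate block 3381 genes passed. Of the tested genes not used to choose the set, only CHRNA7 did. The wider lists held 31 calls and the neighbours 18, among them RNU6-415P (0.64, adjusted p = 0.0469, against 0.141 without the block). The block also ended the TMEM35A call.

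With 3 libraries a group, small differences in genes such as CHRNA5 are within reach of 1 library, and ACHE, CHAT and SLC5A7 rest on too few fragments for a small difference to be seen.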
